A study of Mus musculus with 21 samples.

Results

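The mouse 2-cell embryo, the stage at which the embryonic genome is first transcribed in bulk and each cell can still form every tissue, was compared with the blastocyst, the stage at which an outer trophectoderm encloses an inner cell mass and a fluid-filled cavity. The comparison rested on 6 of the 21 samples of the series, chosen by their stage labels and not by any measured value: 2 short-read libraries of each stage and 1 long-read pool of each stage. The short-read libraries gave the abundance of every transcript of a merged long-read annotation in TPM, a length-corrected share of the transcripts that sums to 1000000 in each library and keeps no read depth. All embryos came from C57/BL6J females mated with males that the titles call DBA/2J and the collection protocol DBA/2N, the females were 3 to 5 weeks old and superovulated with PMSG and hCG, and the embryos were cultured in KSOM medium. The 2-cell embryos were lysed 46 to 48 h and the blastocysts 94 to 96 h after hCG, and the cDNA of pooled embryos was amplified by Smart-seq2, so a library gives no single embryo and no single lineage.

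As background, the 2-cell embryo carries both maternal and embryonic RNA. Transcripts stored in the growing oocyte are degraded from fertilization on, and the embryonic genome starts with a short-lived set of transcripts that includes the Zscan4 cluster and transcripts driven by endogenous retroviral promoters. After further divisions and compaction, the outer cells become a sealed epithelium under the control of TEAD4, CDX2 and GATA3, while NANOG and GATA6 mark the epiblast and the primitive endoderm of the inner cell mass.

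For the 13470 genes with at least 1 TPM in at least 2 of the 12 libraries from oocyte to blastocyst, levels were compared as log2(TPM + 1) with limma, each stage weighted by its own spread. At an adjusted p under 0.05 (Benjamini-Hochberg over all genes tested), 305 genes (2.26%) were higher at blastocyst and 1004 (7.45%) were higher at 2-cell. All 305 and all 1004 had both libraries of one stage above both of the other, so leaving out 1 library could not reverse the direction of any of them. Across all genes tested, without regard to a call, the libraries stood apart in this way for 2393 genes (17.8%) in favour of the blastocyst and for 5151 (38.2%) in favour of the 2-cell stage. The median change of all genes was -0.71 on the log2 scale. After quantile normalization, which gives the libraries 1 distribution, that median was 0.09 and the split became 1233 genes (9.15%) higher at blastocyst against 1120 (8.31%) higher at 2-cell, so changes below are also to be read against the median of all genes. TPM are shares of a library, and neither the RNA content of an embryo nor the number of its cells enters them. In pooled embryos fewer cells of a type and less RNA per cell cannot be told apart.

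The spread between replicates was larger at these stages than at the others. On the log2 scale the replicates had a median SD of 1.03 at 2-cell and 0.644 at blastocyst, against 0.204 to 0.495 at the other stages from oocyte to 8-cell, and the correlation of replicates across genes was 0.730 and 0.883, against 0.861 in the oocyte and 0.932 to 0.968 at the other stages. At least 1 TPM was reached by 11128 and 13091 genes at 2-cell and by 10913 and 9451 at blastocyst. The paper lists more sequences for 2-cell replicate 2 than for replicate 1, and the part of depth in these numbers was not tested. The 52 measured oocyte and maternal effect genes summed to 2657 TPM in 2-cell replicate 1 and 16891 TPM in replicate 2, and the 35 measured 2-cell stage genes to 538 and 2286 TPM, so the library labelled replicate 2 held more of both lists; the part of this difference in the results was not tested. Each count of calls is therefore also given without single libraries. By the methods, the libraries of a stage came from separately collected batches of pooled embryos. The p-values rest on the spread between such batches over all 12 libraries, weighted by stage, and not between single embryos. With the 4 libraries of these 2 stages alone, 81 genes were called higher at blastocyst and 423 higher at 2-cell. When each of the 4 libraries was left out in turn, 37 of the 305 genes and 212 of the 1004 were called in every fit, and all of them kept their direction. A single fit called 58 genes higher at blastocyst without 2-cell replicate 1, 64 without 2-cell replicate 2, 166 without blastocyst replicate 1 and 197 without blastocyst replicate 2, and 739, 247, 694 and 376 higher at 2-cell.

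**Figure D1:**
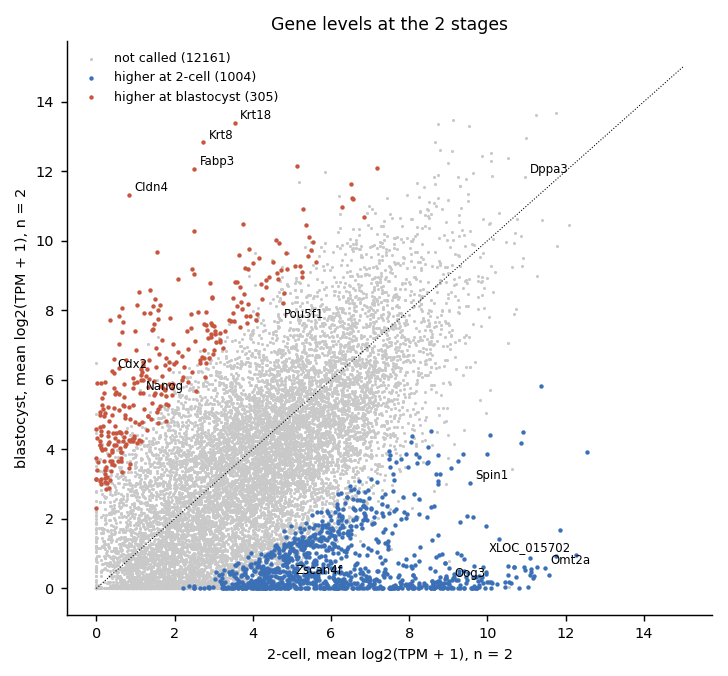
Each point is a gene, with the mean log2(TPM + 1) of the 2 2-cell libraries on the horizontal axis and of the 2 blastocyst libraries on the vertical axis; blue marks the 1004 genes called higher at 2-cell, red the 305 called higher at blastocyst, and the dotted line equal levels. Cldn4, Krt8, Krt18 and Fabp3 lie farthest above the line, while the genes called higher at 2-cell lie along the horizontal axis at blastocyst levels near 0.

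The defining genes were mostly called at blastocyst and mostly not at 2-cell. Of the blastocyst markers, Cdx2, Krt8, Krt18, Nanog and Gata6 were called higher at blastocyst, and Atp1b1 had no merged transcript. Of the 2-cell markers, Zscan4d was called higher at 2-cell, Tcstv3 (5.6 and 71.3 TPM at 2-cell, 5.3 and 0.0 at blastocyst), Zfp352 (4.2 and 73.3 against 6.1 and 0.2 TPM) and Duxf3 (0.0 and 5.5 against 0.5 and 0.0 TPM) were not called, and Usp17le had no merged transcript. Markers of other cells were low at blastocyst. The 3 measured of 15 cumulus and granulosa cell markers summed to 45 and 51 TPM at 2-cell and to 9 and 6 TPM at blastocyst, nearly all of it Amhr2. The 15 sperm markers summed to 143 and 50 against 5 and 5 TPM, with Tssk6 at 136.8 TPM in 2-cell replicate 1, the protamine gene Prm1 at 0.0 and 4.4 against 0.6 and 1.1 TPM, and Smcp, Crisp2 and Spata18 at 0 in all 4 libraries. The 8 measured blood and oviduct markers summed to 24 and 375 against 8 and 9 TPM, nearly all of it Hba-a1 (18.6 and 367.9 against 5.7 and 5.6 TPM) with Ptprc, the pan-leukocyte antigen, at or near 0. Their part in the results was not tested, and none of their members was called.

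The 4 largest rises were those of Cldn4, Krt8, Krt18 and Fabp3. Cldn4, which encodes a tight junction claudin, had 0.3 and 1.5 TPM at 2-cell against 1626 and 4050 TPM at blastocyst, a rise of 10.49 on the log2 scale (SE 1.60, adjusted p = 0.00121). Krt8, a keratin of simple epithelia, rose from 2.7 and 10.97 TPM to 3504 and 15040 TPM (10.09, SE 1.69, adjusted p = 0.00225). Its filament partner Krt18 rose from 2.2 and 41.2 TPM to 5733 and 20177 TPM (9.85, SE 1.61). In each case the lowest blastocyst library lay over 100 times above the highest 2-cell library. Fabp3, a fatty acid binding protein, rose from 0.5 and 20.7 TPM to 7424 and 2461 TPM (9.56, SE 1.31). Cldn4 is a single-exon gene on chromosome 5 (134945120 to 134946930, minus strand, GRCm38), Krt8 and Krt18 lie on chromosome 15 (101996704 to 102004315, minus strand, and 102028206 to 102032026, plus strand), and Fabp3 lies on chromosome 4 (130308622 to 130315462, plus strand). The deposited transcript that carried most of each gene's TPM matched an annotated intron chain, or in Cldn4 an annotated single exon.

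Promoters are shown for Cldn4, Krt8 and Krt18, which led the rises, and for Oog3, rank 6 among the annotated falls. Their deposited transcripts start at, or close to, the RefSeq start. The deposited starts of the annotated falls Zbed3 and Prr23a1 lie 121 and 231 bases from it, and their promoters are not shown. Each run covers 250 bases before to 50 bases after the RefSeq start on GRCm38.p6, 5′ to 3′ on the strand of the gene, with capitals for matches on either strand to TATAAA, which the TATA-binding protein reads, GGGCGG, the GC box, AGATAA, which factors of the GATA family read, GGAATG of TEAD factors, GCCNNNGGC of AP-2 factors and GGATTA of OTX and OBOX type homeodomain factors.
Cldn4, chr5:134946885-134947184, minus strand: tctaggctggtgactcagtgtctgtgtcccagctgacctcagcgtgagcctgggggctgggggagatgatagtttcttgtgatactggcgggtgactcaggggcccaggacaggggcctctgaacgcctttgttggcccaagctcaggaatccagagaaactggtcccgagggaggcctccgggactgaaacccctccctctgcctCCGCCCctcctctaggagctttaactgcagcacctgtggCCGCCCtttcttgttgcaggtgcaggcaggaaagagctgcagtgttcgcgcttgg
Krt8, chr15:102004293-102004592, minus strand: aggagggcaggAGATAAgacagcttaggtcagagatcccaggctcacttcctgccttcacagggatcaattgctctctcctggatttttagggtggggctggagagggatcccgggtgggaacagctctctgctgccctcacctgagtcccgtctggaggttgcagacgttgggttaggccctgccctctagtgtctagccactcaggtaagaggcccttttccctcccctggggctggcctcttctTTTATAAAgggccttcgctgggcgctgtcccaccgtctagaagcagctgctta
Krt18, chr15:102027966-102028265, plus strand: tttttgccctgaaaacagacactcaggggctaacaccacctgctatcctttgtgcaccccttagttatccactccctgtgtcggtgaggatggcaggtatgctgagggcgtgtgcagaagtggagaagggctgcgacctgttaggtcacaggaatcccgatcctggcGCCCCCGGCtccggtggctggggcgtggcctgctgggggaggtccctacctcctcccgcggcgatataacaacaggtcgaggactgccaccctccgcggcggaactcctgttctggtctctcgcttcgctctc
Oog3, chr4:144162602-144162901, minus strand: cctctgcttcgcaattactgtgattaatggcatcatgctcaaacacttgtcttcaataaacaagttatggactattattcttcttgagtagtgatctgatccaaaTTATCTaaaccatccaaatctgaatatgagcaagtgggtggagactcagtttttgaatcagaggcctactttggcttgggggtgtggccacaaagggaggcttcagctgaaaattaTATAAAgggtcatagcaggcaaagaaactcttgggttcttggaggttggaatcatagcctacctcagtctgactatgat
The TATAAA letters of Krt8 lie on both strands in overlap, 30 and 28 bases before the first base of the deposited transcript, and those of Oog3 lie 32 bases before it. Zbed3 has no TATAAA, and that of Prr23a1 lies 78 bases after its deposited start. AGATAA lies 266 bases before the deposited start of Krt8 and 148 before that of Oog3. Cldn4 has a GC box 48 and 9 bases before its deposited start, and Krt18 an AP-2 match 73 bases before. A promoter within 500 bases of the start of the most abundant transcript was found for 178 genes higher at blastocyst, 176 higher at 2-cell and 5109 of all genes tested. TATAAA was held by 10.7% of the first, 12.5% of the second and 7.71% of all, AGATAA by 11.8, 5.11 and 5.93%, GGATTA by 3.37, 10.2 and 6.48%, and GGGCGG by 60.7, 47.2 and 63.8%. GGAATG (11.2, 8.52 and 11.4%) and GCCNNNGGC (23.6, 23.9 and 22.5%) were near the share of all genes in both sets. Among all 32851 promoters of the table the shares were 13.6% for TATAAA, 11.2% for AGATAA, 7.06% for GGATTA, 35.7% for GGGCGG, 14.7% for GGAATG and 16.6% for GCCNNNGGC. A match is a run of letters and not a measured binding site, and these shares are given with no test.

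Trophectoderm genes formed the list with the largest median rise. Of 25 listed genes 20 were measured and tested, 9 were higher at blastocyst, 1 was higher at 2-cell and 10 were not called, beside 2.26 and 7.45% called over all genes. The median change was 4.09 against -0.71 over all genes. Among the regulators, Cdx2, which maintains the trophectoderm, was at 0.2 and 0.5 TPM at 2-cell and at 46.7 and 119.6 TPM at blastocyst (a rise of 5.86, SE 0.98, adjusted p = 0.00229). Gata3, which acts beside it, rose from 1.5 and 11.8 to 784.3 and 1928 TPM (7.76, SE 1.62). Both blastocyst libraries stood far above both 2-cell libraries in Cdx2 and Gata3, but not in every listed regulator. Hand1 stood apart the other way (44.8 and 5.7 against 0.7 and 0.7 TPM), and Tfap2c overlapped (229.8 and 47.6 against 55.0 and 166.6 TPM). Neither was called. Of the 20 genes, 15 stood apart in favour of the blastocyst, 3 the reverse and 2 overlapped, beside 17.8 and 38.2% apart over all genes. Most Gata3 TPM sat on a new isoform of 3 exons (chromosome 2, 9857873 to 9863625, minus strand), and this region overlaps the antisense gene Gm13256 (9858442 to 9877886, plus strand; 1.2 and 2.9 against 381.5 and 1753 TPM), and because Smart-seq2 reads carry no strand the reads of the pair cannot be told apart where they overlap. Among the products, Krt7, a further keratin, rose from 1.6 and 1.4 to 24.9 and 119.1 TPM and Dppa1 from 0.4 and 2.8 to 503.3 and 113.4 TPM. Tinagl1, a secreted matrix protein, rose from 0.8 and 0.6 to 45.2 and 196.2 TPM, and Tspan8, a tetraspanin of the cell surface, from 1.0 and 11.3 to 363.5 and 78.9 TPM.

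Upstream of CDX2 the picture differed by gene. Tead4, the transcription factor required for the trophectoderm programme, was at 6.5 and 6.3 TPM at 2-cell and at 22.4 and 37.7 TPM at blastocyst, and was not called (2.02, SE 0.98, adjusted p = 0.212). Its coactivator Yap1 was at 39.1 and 186.4 against 14.8 and 3.4 TPM, with the libraries apart in the other direction (adjusted p = 0.0756). After quantile normalization Tead4 was called higher at blastocyst and Yap1 higher at 2-cell. Esx1, an X-linked homeobox gene known from the placenta, was the listed gene called higher at 2-cell (7.8 and 55.7 against 0.2 and 0.7 TPM, a fall of -3.96). Gata2, Eomes, Elf5, Arid3a and Dlx3 had no merged transcript. When the 4 libraries were left out in turn, between 6 and 8 of the 9 genes were called, and Cdx2, Dppa1, Fabp3, Krt18, Krt8 and Tinagl1 in every fit. Among the gene lists with a member called higher at blastocyst, the trophectoderm list and the junction list described below, through Cldn4, were the ones with a call in all 4 fits.

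**Figure D2:**
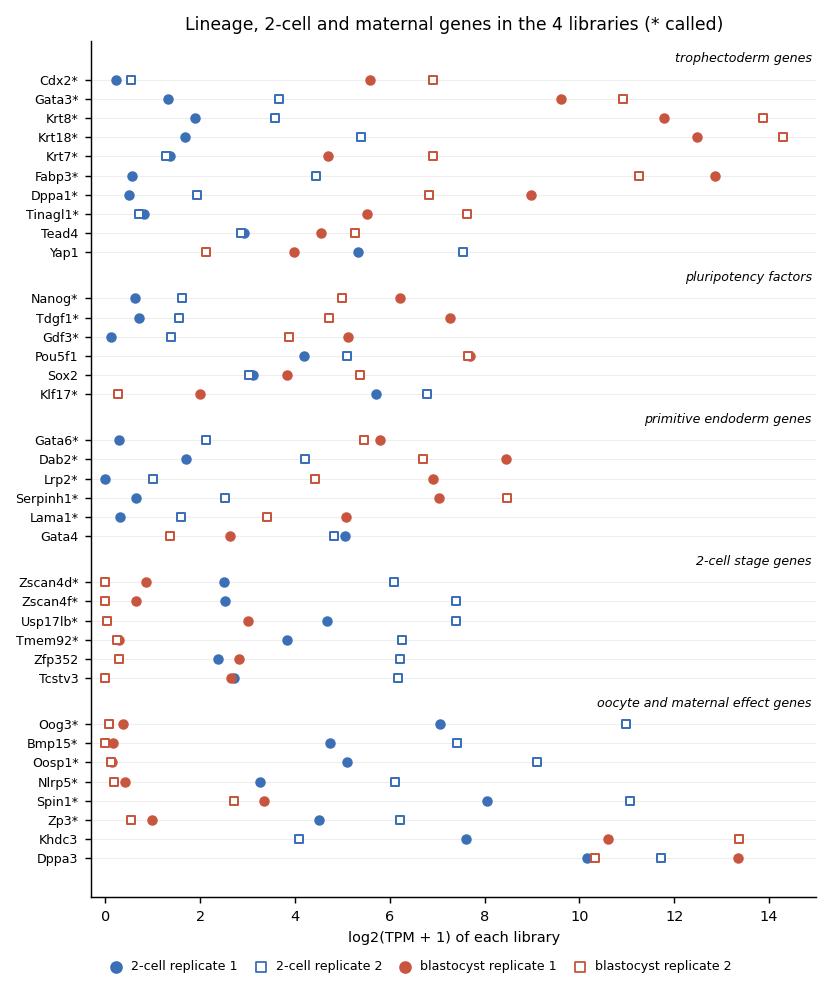
Each row is a gene and each symbol 1 library, placed by its log2(TPM + 1); blue is 2-cell, red is blastocyst, filled circles are replicate 1, open squares replicate 2, and an asterisk marks a called gene. The trophectoderm rows are widely split between the colours except Tead4 and Yap1, the blue squares of the 2-cell stage and maternal genes lie to the right of the blue circles except for Khdc3, and in the Dppa3 row the colours interleave.

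Genes of the inner cell mass rose less uniformly. Of 24 pluripotency factors 22 were tested, 3 were higher at blastocyst, 1 was higher at 2-cell and 18 were not called (median change 0.84), beside 2.26 and 7.45% called over all genes. Nanog, which specifies the epiblast, was at 0.5 and 2.1 TPM at 2-cell and at 73.7 and 30.9 TPM at blastocyst (4.49, SE 1.01, adjusted p = 0.0143). Tdgf1, the NODAL co-receptor Cripto, rose from 0.6 and 1.9 to 153.7 and 25.4 TPM, and Gdf3, a TGF-beta family ligand, from 0.1 and 1.6 to 33.6 and 13.8 TPM. Klf17, a Kruppel-like factor, fell from 51.2 and 110.1 to 3.0 and 0.2 TPM (-5.12, adjusted p = 0.0105). The values of Pou5f1, which encodes OCT4, were 17.3 and 33.2 TPM against 206.4 and 199.7 TPM and those of Dppa5a 212.8 and 760.3 against 12292 and 4431 TPM. Neither was called (adjusted p = 0.156 and 0.0984), although their libraries did not overlap, and Pou5f1 was called after quantile normalization. Sox2 (7.6 and 7.2 against 13.2 and 40.4 TPM) and Klf4 (38.4 and 344.8 against 63.6 and 37.6 TPM) were not called either, and the libraries of Klf4 overlapped. Without 2-cell replicate 1, without 2-cell replicate 2 and without blastocyst replicate 1, none of the 3 rises was called, and all 3 were called without blastocyst replicate 2. Klf17 was called without 2-cell replicate 1 and without blastocyst replicate 1 and not without either of the other libraries.

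Of 22 primitive endoderm genes 17 were tested, 6 were higher at blastocyst, beside 2.26% over all genes, and none higher at 2-cell (median change 3.30). Gata6, which specifies this layer, was at 0.2 and 3.3 TPM at 2-cell and at 54.2 and 43.2 TPM at blastocyst (4.43, SE 1.00, adjusted p = 0.0147). The endocytic genes Lrp2, which encodes megalin, and Dab2, an adaptor of its cargo uptake, rose from 0.0 and 1.0 to 118.9 and 20.4 TPM and from 2.3 and 17.5 to 346.8 and 102.8 TPM. Of the basement membrane genes in the list and their collagen chaperone, some were called. Serpinh1, which encodes the collagen chaperone HSP47, rose from 0.6 and 4.8 to 130.6 and 355.6 TPM (6.17, SE 1.16), Lama1, a laminin chain, from 0.2 and 2.0 to 33.0 and 9.7 TPM, and Col4a1, a type IV collagen chain, from 0.1 and 1.4 to 27.3 and 9.3 TPM. Lamb1, Lamc1, Col4a2 and Sparc of the same list were not called (adjusted p = 0.371, 0.0523, 0.0787 and 0.0678), although their libraries stood apart in favour of the blastocyst. The receptor-associated chaperone Lrpap1 of the lysosome and endocytosis list rose from 14.6 and 96.9 to 2593 and 1414 TPM. Gata4, a later factor of the layer, was at 32.3 and 27.3 TPM at 2-cell against 5.2 and 1.6 TPM at blastocyst and was not called (adjusted p = 0.0689). Of the 6 rises, none was called without 2-cell replicate 1, 1 without 2-cell replicate 2, 3 without blastocyst replicate 1 and 5 without blastocyst replicate 2.

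The genes of the blastocoel showed rises in some parts of the machinery only. Of 32 junction, polarity and blastocoel genes 25 were tested, and 3 were called, all higher at blastocyst (median change 1.21). Over all genes 2.26% were called higher at blastocyst and 7.45% higher at 2-cell. The libraries of 11 of the 25 stood apart in favour of the blastocyst and of 1 the reverse, beside 17.8 and 38.2% of all genes. Beside Cldn4 these were Aqp3, a water and glycerol channel (14.6 and 5.0 against 113.1 and 247.9 TPM, a rise of 4.12), and Dsg2, a desmosomal cadherin (0.0 and 0.4 against 27.6 and 8.1 TPM, a rise of 3.79). Cdh1, which encodes E-cadherin, was at 3.0 and 22.8 against 63.4 and 13.3 TPM and Tjp1, the tight junction scaffold ZO-1, at 18.9 and 28.8 against 37.1 and 13.9 TPM; the libraries of both overlapped. Of 11 tested Hippo pathway genes, Amotl2, an angiomotin that binds YAP1, was called (0.7 and 4.1 against 28.6 and 24.1 TPM, a rise of 3.20, adjusted p = 0.036), and the call was lost without any 1 of the 4 libraries. Aqp3 and Dsg2 were called without blastocyst replicate 1, and 1 of the pair without blastocyst replicate 2.

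Outside the gene lists, genes of secretion, membrane traffic and metabolism were among those called in all 4 fits that leave a library out. They are named here after their values were seen. Of these 37 genes 36 were annotated. Plet1, a surface protein of placental progenitors, was at 1.1 and 2.0 TPM at 2-cell and at 117.4 and 76.4 TPM at blastocyst (5.23, SE 0.88). Wfdc2, a secreted epithelial protein, was at 1.9 and 1.3 against 159.8 and 363.0 TPM. Both 2-cell libraries of these genes were at 2.0 TPM or less. Dkk1, a secreted WNT antagonist, rose from 0.0 and 0.1 to 19.02 and 16.69 TPM, and Sdc4, a heparan sulfate proteoglycan, from 4.6 and 31.1 to 2448 and 824.5 TPM. The endosomal sorting genes Snx1 (5.0 and 9.0 against 409.4 and 271.4 TPM) and Snx2 (9.3 and 14.2 against 1090 and 551.6 TPM) rose by 5.43 and 5.95, and Rab17, a GTPase of epithelial transport, rose from 0.0 and 0.0 to 72.9 and 47.9 TPM. Among enzymes and carriers of metabolism, Adh1, an alcohol and retinol dehydrogenase, rose from 0.1 and 1.3 to 577.0 and 120.7 TPM, Bhmt, which remethylates homocysteine, from 5.4 and 3.6 to 953.0 and 357.4 TPM, Ass1, an enzyme of arginine synthesis, from 0.2 and 6.2 to 443.4 and 148.9 TPM and Apoa1, the main protein of high-density lipoprotein, from 0.3 and 0.3 to 101.0 and 429.6 TPM. Bhmt had already reached 459.9 TPM in 4-cell replicate 1 and 1643 TPM in 8-cell replicate 1, whereas Adh1 was at 0.1 and 0.0 TPM there. Capg, an actin capping protein (0.0 and 1.3 against 449.3 and 114.6 TPM), and 2610528J11Rik (0.4 and 2.4 against 212.4 and 622.6 TPM) completed the 10 largest rises.

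In lists of housekeeping machinery most genes were not called, beside 2.26% called higher at blastocyst and 7.45% higher at 2-cell over all genes. The cytosolic ribosomal, oxidative phosphorylation and proteasome lists had higher summed levels in both blastocyst libraries. The 82 cytosolic ribosomal protein genes summed to 16503 and 16833 TPM at 2-cell and to 102257 and 62258 TPM at blastocyst. In 64 of the 82 both blastocyst libraries lay above both 2-cell libraries and in none the reverse, beside 17.8 and 38.2% of all genes. The median change was 2.10, and 4 genes were called: Rpl12, Rpl27a, Rpl3 and Rps18, the last from 57.4 and 153.0 to 3949 and 1401 TPM. Of 82 subunits of oxidative phosphorylation, 59 had their libraries apart in favour of the blastocyst and 3 the reverse (median change 2.65). In all, 7 were called higher at blastocyst, such as the complex I subunits Ndufc2 (2.6 and 12.7 against 389.3 and 155.8 TPM, a rise of 5.15) and Ndufb8 (10.6 and 159.1 against 1916 and 632.8 TPM). Cox4i2, an isoform of a cytochrome c oxidase subunit, was called higher at 2-cell (4.8 and 31.3 against 0.1 and 0.0 TPM). Of 36 tested proteasome subunits, 23 had their libraries apart in favour of the blastocyst, none the reverse, and none was called (median 2.03); of 78 mitochondrial ribosomal proteins the numbers were 39 and 2, with Mrpl17 and Mrpl36 called (median 1.29). The libraries of the other 37 mitochondrial ribosomal proteins overlapped, as did the sums of that list, at 13239 and 5318 TPM at 2-cell against 12620 and 17724 TPM at blastocyst. Copies of ribosomal protein genes elsewhere in the genome can share reads with them, so single levels are uncertain. After quantile normalization 20 cytosolic and 18 mitochondrial ribosomal proteins, 38 oxidative phosphorylation subunits and 6 proteasome subunits were called higher at blastocyst, and Cox4i2 was not called. Without either 2-cell library, none of the calls of these 4 lists remained.

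Lists of metabolism, lysosome and DNA methylation held 1 or 2 called genes in a direction at most, beside 2.26% called higher at blastocyst and 7.45% higher at 2-cell over all genes. Of 19 tested glycolysis genes, Slc2a3, a high-affinity glucose carrier, was higher at blastocyst (3.9 and 15.7 against 169.9 and 108.8 TPM, 3.93) and Ldhb, the lactate dehydrogenase subunit abundant in the oocyte, was higher at 2-cell (62.2 and 488.9 against 1.7 and 1.0 TPM, -6.25). Aldoa, the muscle-type aldolase, stood at 49.7 and 39.8 against 823.5 and 850.9 TPM and was not called (adjusted p = 0.0533). Of 21 tested lysosome and endocytosis genes, Psap, the precursor of the saposins, rose from 43.5 and 26.3 to 2805 and 7209 TPM (7.01, SE 1.48, adjusted p = 0.00978) and was called beside Lrpap1. None of 18 tested cholesterol synthesis genes was called by limma (median 0.52), and 2 were after quantile normalization. Of 14 tested genes of DNA methylation, Tdg, a glycosylase that removes oxidized methylcytosine, was called (2.0 and 1.5 against 40.3 and 54.0 TPM, 4.11, adjusted p = 0.0158). Dnmt3b, a de novo methyltransferase, was at 5.2 and 40.7 against 247.8 and 74.7 TPM, and Tet3, the oxidase of the zygote, at 8.8 and 116.3 against 3.0 and 3.4 TPM; neither was called. The call on Slc2a3 was lost without any 1 of the 4 libraries, Ldhb was called without 2-cell replicate 1 only, and Tdg without blastocyst replicate 1 only. Psap and Lrpap1 were both lost without 2-cell replicate 1, and 1 of the pair was called without each of the other libraries.

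In the other direction, the oocyte and maternal effect genes were the largest named group. Of 54 oocyte and maternal effect genes 52 were tested, 23 were higher at 2-cell, none was higher at blastocyst and 29 were not called, and both 2-cell libraries lay above both blastocyst libraries in 46. Over all genes 7.45% were called higher at 2-cell and 38.2% stood apart this way. The median change was -4.13. Oog3, an oogenesin of the leucine-rich repeat family, was at 131.8 and 2019.3 TPM at 2-cell and at 0.3 and 0.0 TPM at blastocyst, a fall of -8.80 (SE 1.24, adjusted p = 0.000792). Its kin Oog1 was at 32.8 and 170.6 against 0.0 and 0.1 TPM. Of the genes for secreted oocyte proteins, Bmp15, a growth factor for granulosa cells, fell from 25.8 and 170.3 to 0.1 and 0.0 TPM and Oosp1 from 33.2 and 547.7 to 0.1 and 0.1 TPM, and Oosp3 was called too. Gdf9, Oosp2 and Zp1 were not called (adjusted p = 0.105, 0.108 and 0.0855). The zona pellucida genes Zp2 (7.0 and 55.1 against 0.4 and 0.0 TPM) and Zp3 (21.6 and 72.9 against 1.0 and 0.5 TPM) were called with adjusted p of 0.0331 and 0.0421. Nlrp5, which encodes MATER of the subcortical maternal complex, fell from 8.6 and 67.9 to 0.3 and 0.1 TPM, and Nlrp9c and Nlrp14 fell by -6.04 and -4.53.

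Further called genes of this list moved the same way. Btg4, an adaptor of deadenylation, was at 51.8 and 671.4 against 7.4 and 0.1 TPM, Tcl1 at 107.7 and 2609 against 28.0 and 3.1 TPM, and Kit, a receptor tyrosine kinase, at 17.5 and 185.6 against 2.0 and 0.5 TPM. The homeobox genes Obox5 and Obox6 of 1 cluster differed in their course. Obox5 was already at 895.7 TPM in oocyte replicate 1, where Obox6 was at 0.0 TPM. Obox6, still counted among the 23, was at 73.1 and 286.5 TPM at 2-cell, 1210 TPM in 4-cell replicate 1 and 4.6 and 0.2 TPM at blastocyst. Members of the Oog, Obox and Nlrp families are similar in sequence and may share reads, so single members are uncertain. Of the listed genes, 4 had overlapping libraries and 2 stood apart in favour of the blastocyst. Dppa3, which protects maternal methylation, overlapped at 1146 and 3398 against 10428 and 1292 TPM. So did H1foo (5.9 and 110.9 against 8.5 and 0.2 TPM), Plat (1.9 and 17.5 against 12.5 and 2.1 TPM) and Mos (0.5 and 3.8 against 0.6 and 0.1 TPM). Khdc3, which encodes FILIA of the subcortical maternal complex, was at 194.3 and 16.01 TPM at 2-cell against 1556 and 10578 TPM at blastocyst, apart in favour of the blastocyst but not called (6.14, SE 2.24, adjusted p = 0.0979), and Ooep of the same complex was at 28.6 and 23.6 against 69.1 and 54.4 TPM. Of the 23 falls, 21 were called without 2-cell replicate 1, 1 (Oog3) without 2-cell replicate 2, 14 without blastocyst replicate 1 and 7 without blastocyst replicate 2, and all 23 kept their direction.

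The 2-cell stage genes themselves were mostly not called. Of 42 listed genes 35 were tested, 7 were higher at 2-cell, none was higher at blastocyst and 28 were not called (median -2.96), while the libraries stood apart in favour of the 2-cell stage in 22, beside 7.45% called and 38.2% apart over all genes. Tmem92, which encodes a membrane protein, was at 13.2 and 75.5 TPM at 2-cell and at 0.2 and 0.2 TPM at blastocyst (-4.77, SE 0.94, adjusted p = 0.00636). Zscan4f, of the cluster that is expressed in bursts at this stage, was at 4.8 and 167.4 against 0.6 and 0.0 TPM, Zscan4d at 4.6 and 66.7 against 0.8 and 0.0 TPM and Zscan4a at 4.6 and 87.9 against 0.4 and 0.0 TPM. In these genes 2-cell replicate 2 was over 10 times above replicate 1. Usp17lb, a deubiquitinase gene (24.5 and 166.8 against 7.1 and 0.0 TPM), Spz1 (3.2 and 19.5 against 0.2 and 0.0 TPM) and Usp26 (6.8 and 36.8 against 0.4 and 0.0 TPM) were the other called members. Pramel6 stood the other way, at 7.5 and 28.3 against 245.7 and 46.8 TPM, and was called higher at blastocyst after quantile normalization only. These are multicopy families whose members can share reads. Without 2-cell replicate 2 none of the 7 was called, and 5, 2 and 1 were called without 2-cell replicate 1, blastocyst replicate 1 and blastocyst replicate 2.

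The course over all stages set the falling genes apart from the rising ones. The 305 rising genes started from a median of 0.26 log2(TPM + 1) in the oocyte, stood at 1.43 in 2-cell embryos and 4.49 in 8-cell embryos, and reached 6.15 in blastocysts, and 266 of them were highest at blastocyst. The 507 annotated falling genes started from a median of 4.28, stood at 5.53 in 2-cell embryos, and dropped through 3.91 in 4-cell and 1.42 in 8-cell embryos to 0.70 in blastocysts. Of these, 286 averaged at least 10 TPM in the oocyte, and 217 were highest at 2-cell. The other 497 falling genes were loci that overlap no annotated exon on their strand. Their median climbed from 2.16 in the oocyte to 5.96 in the 1-cell and 6.38 in the 2-cell embryo, then dropped to 4.67, 1.17 and 0.24 over the next 3 stages. Of these loci 302 were highest at 2-cell, 148 at 1-cell and 2 in the oocyte. The 2-cell and blastocyst medians, and the counts of genes highest at these stages, describe the calls and are not a further result. Of all 13470 genes tested, 2768 were highest at 2-cell, 2071 at blastocyst, 2045 at 1-cell and 1515 in the oocyte. An oocyte mean of at least 10 TPM was reached by 4921 of them.

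**Figure D3:**
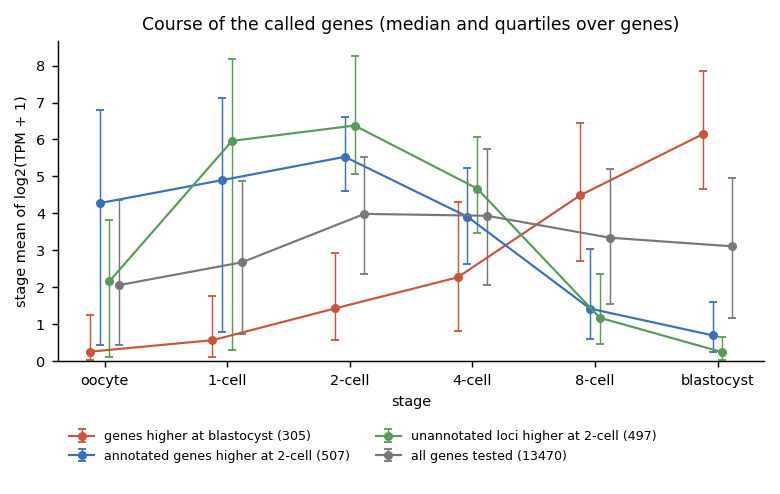
Points give the median over genes of the stage mean of log2(TPM + 1) and bars the quartiles, for the 6 stages from oocyte to blastocyst. Genes higher at blastocyst climb from 2-cell on, annotated genes higher at 2-cell are already at 4.28 in the oocyte, and unannotated loci higher at 2-cell rise from 2.16 in the oocyte to 5.96 at 1-cell and fall to 0.24 at blastocyst.

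Unannotated loci were called higher at 2-cell more often than other genes. Of 3465 tested, 14.3% were called higher at 2-cell and 0.750% higher at blastocyst, beside 4.42 and 2.92% of 9054 protein-coding genes. Among transcripts, tested by the same fit, 1.60% of 20250 were higher at blastocyst (325) and 4.99% higher at 2-cell (1011). Transcripts of new genes, defined as transcripts between annotated genes, were called higher at 2-cell in 13.2% of 2057 cases, single-exon ones in 15.8% of 1426 and multi-exon ones in 7.45% of 631. Exact matches of annotated transcripts were called in both directions about equally often, 2.73% higher at blastocyst and 2.52% higher at 2-cell. All transcripts of new genes together held 14.8 and 18.0% of the TPM of the 2-cell libraries and 2.85 and 2.45% of the blastocyst libraries. With 2 libraries a stage an exact permutation test of such a share cannot fall below 0.333.

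**Figure D4:**
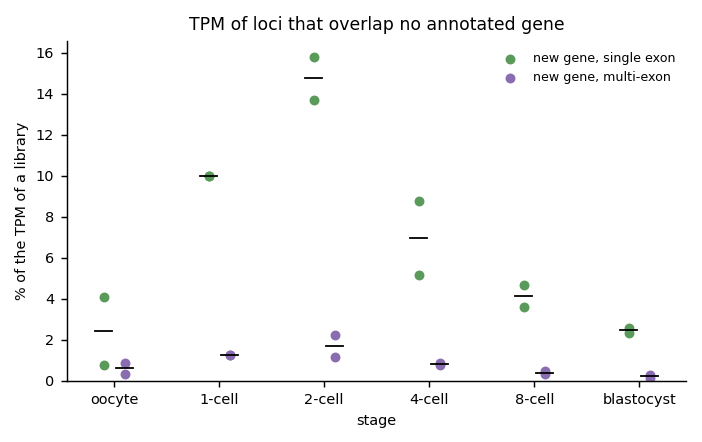
Each point is the percentage of a library's TPM held by transcripts that lie between annotated genes, in green for single-exon and in purple for multi-exon transcripts, and the bar is the mean of the 2 libraries of a stage. The single-exon points reach 13.7 and 15.8% at 2-cell, from 10.0 and 9.98% at 1-cell, and lie at 2.56 and 2.34% at blastocyst.

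Of the 10 largest falls, 9 were unannotated loci with a single exon. XLOC_015702, a single exon of 423 bases on the X chromosome (50229425 to 50229847, minus strand), was at 5630 and 4331 TPM at 2-cell and at 1.1 and 0.8 TPM at blastocyst, a fall of -11.30 (SE 1.30, adjusted p = 0.000541). XLOC_015460, 483 bases on the same chromosome (63555044 to 63555526, plus strand), was at 3386 and 2786 against 0 and 0.7 TPM. XLOC_000815 on chromosome 1 (97178993 to 97179705, minus strand) was at 1798 and 2478 against 0 and 0.1 TPM. Both 2-cell libraries were high and close to each other in these loci. XLOC_004961 on chromosome 15 (59801007 to 59802285, plus strand; 972.4 and 5349 TPM at 2-cell), XLOC_001003 on chromosome 1 (178471529 to 178473224, minus strand; 1833 and 2949 TPM), XLOC_011804 and XLOC_011998 on chromosome 6 (34585703 to 34587333 and 97812577 to 97813971, both plus strand; 1372 and 2342, and 2460 and 1937 TPM), XLOC_000266 on chromosome 1 (98642377 to 98644007, plus strand; 2760 and 4244 TPM) and XLOC_014380 on chromosome 8 (109327113 to 109328771, minus strand; 1963 and 3093 TPM) were each at 2.3 TPM or less in both blastocyst libraries. The 9 loci together held 2.22 and 2.95% of the 2-cell TPM. All 9 were called in each of the 4 fits that leave a library out, as were 190 of the 497 falling loci, between 199 and 386 of which were called in a single such fit.

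Some of these single exons had nearly the same length. XLOC_011804 and XLOC_000266 were both 1631 bases long and XLOC_014380 1659 bases, and the annotated long noncoding genes Gm38025 (1500 and 3201 against 2.4 and 0.0 TPM) and Gm47080 (1124 and 922.0 against 0.3 and 0.0 TPM), which led the annotated falls with Omt2a, Omt2b and the unclassified gene Gm44087, were represented by single exons of 1635 and 1630 bases. In a window set after the values were seen, 45 of 225 falling single-exon new genes (20.0%) were 1600 to 1700 bases long, beside 26 of the other 1201 tested (2.16%). The falling set was also longer as a whole, with a median of 1226 bases against 617. The annotated transcripts of Gm38025 and Gm44087 share 494 runs of 31 bases, 22.5% of those of the first and 31.3% of those of the second. The annotated transcript of Gm47080, of only 646 bases, shares far fewer, 22 with Gm38025 and 41 with Gm44087. The sequences of the deposited single exons were not compared. Loci that share sequence share reads, so the level of a single locus is uncertain. The call on Clec16a (399.3 and 589.7 against 0.9 and 0.5 TPM) likewise rests on a single exon of 1613 bases assigned to it by overlap and not on its known mRNA. Whether the other loci are copies of each other was not tested.

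Of the annotated genes that led the falls, Omt2a and Omt2b, neighbours on chromosome 9 known as oocyte maturation genes, were at 1096 and 7316 and at 758.6 and 5117 TPM at 2-cell against at most 1.2 TPM at blastocyst. Zbed3, linked to the subcortical maternal complex, was at 20080 and 1745 against 49.3 and 3.5 TPM, and had reached 42130 and 132356 TPM at 1-cell. Prr23a1 was at 2560 and 388.7 against 1.2 and 4.4 TPM. In the oocyte libraries Omt2a was at 19941 and 771.4 TPM, Omt2b at 18880 and 841.2 TPM and Zbed3 at 24172 and 64680 TPM. A smaller set was low in the oocyte and is named after its values were seen. Exoc3l2, on a new isoform of 4 exons on chromosome 7 (19488940 to 19496760, plus strand), was at 0 TPM in oocyte replicate 1, at 1937 and 69.1 TPM at 2-cell and at 0.3 and 0.7 TPM at blastocyst. Hspa1a, the inducible heat shock protein 70 known as an early marker of genome activation, was at 0.3 TPM in oocyte replicate 1, 151.8 and 28.7 TPM at 2-cell and 0.4 and 0.6 TPM at blastocyst (-5.47, SE 1.00), and may share reads with its near copy Hspa1b. Rtn2, a reticulon, was at 0.0 TPM in that oocyte library and at 125.1 and 75.9 against 1.2 and 0.9 TPM. Of genes present in the oocyte, Siah2, a ubiquitin ligase (264.5 and 344.3 against 0.9 and 0.6 TPM), and Brdt, a bromodomain protein of the germ line (507.0 and 360.7 against 3.1 and 1.1 TPM), fell with close 2-cell libraries. Exoc3l2, Hspa1a, Rtn2, Siah2 and Brdt were called in each fit that leaves out 1 of the 4 libraries, whereas Omt2a and Omt2b were not called without 2-cell replicate 2, Prr23a1 without 2-cell replicate 1, and Zbed3 without either 2-cell library or blastocyst replicate 2.

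Transcripts outside the annotation also rose. The 5 largest rises among new isoforms and new genes were all new isoforms. That of Gata3 (TCONS_00011749) was at 1.0 and 3.6 against 535.9 and 1284 TPM, and that of Psap (TCONS_00001628, 13 exons, chromosome 10, 60277713 to 60302599, plus strand) at 5.5 and 13.3 against 1034 and 1999 TPM. A new isoform of Khdc3 (TCONS_00020848) was at 1.5 and 0.6 against 273.2 and 138.5 TPM and was called although its gene was not. New isoforms of Sod2, the mitochondrial superoxide dismutase (TCONS_00008442, 9.4 and 14.1 against 483.7 and 1606 TPM), and of Coil, the Cajal body protein coilin (TCONS_00003013, 1.4 and 0.0 against 181.5 and 55.7 TPM), followed. The forms of Khdc3 and Coil were present in the blastocyst long-read pool, that of Sod2 in the 2-cell pool only, and those of Gata3 and Psap in neither. Of the 2 loci that the study itself singled out, the 579-base transcript of XLOC_004958 on chromosome 15 (59100339 to 59103973, plus strand) fell from 270.8 and 134.6 to 9.8 and 10.1 TPM (-4.13, SE 0.97, adjusted p = 0.0259). Its 915-base transcript (19.9 and 31.9 against 4.2 and 0.2 TPM) and Kdm4dl (3.6 and 37.2 against 1.0 and 0.2 TPM) were not called (adjusted p = 0.0821 and 0.0719). Without 2-cell replicate 2 no transcript was called by limma in either direction, with 1002 higher at blastocyst and 1667 higher at 2-cell at an unadjusted p under 0.05.

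The long-read pools, made from the same batches of cDNA, were set beside these calls. They share their cDNA with the short reads and are not separate embryos. The pools of all stages were also merged into the annotation that was tested. The presence of a called transcript in the pool of its stage is therefore partly built in. Of the 325 transcripts higher at blastocyst, 80.9% (95% Wilson interval 76.3 to 84.8%) were present in the blastocyst pool, with the same intron chain or, for single exons, by containment or a reciprocal overlap of 80%, and 6.46% (4.26 to 9.68%) in the 2-cell pool. Of the 1011 transcripts higher at 2-cell, 63.1% (60.1 to 66.0%) were in the 2-cell pool and 1.48% (0.901 to 2.43%) in the blastocyst pool. Among all transcripts tested the shares were 28.5% in the 2-cell pool and 27.9% in the blastocyst pool. The pools held 8019 and 8409 transcripts; 44.0% (42.9 to 45.1%) of the 2-cell transcripts were found in the blastocyst pool and 45.2% (44.1 to 46.2%) of the blastocyst transcripts in the 2-cell pool. Their median lengths were 1337 and 1108 bases, and 21.1 and 20.6% had a single exon. There was 1 pool a stage, so the intervals cover counting error over transcripts only and the shares have no replicate test. The number of reads of each pool was not taken into account.

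Genes also changed which of their transcripts they used. For 8588 transcripts of 3105 genes that averaged at least 5 TPM at both stages, the ratio of a transcript to the rest of its gene was tested. At an adjusted p under 0.05 and a change of the mean share over 0.1, 267 transcripts (3.11%) of 175 genes were called, of which 162 were not called at the level of the gene. Of the 267, 116 had a higher share at blastocyst and 151 at 2-cell, so not every favoured form of the 175 genes was itself called. The form favoured at blastocyst was an exact match of an annotated transcript in 147 of the 175 genes and the form favoured at 2-cell in 51. A new isoform was favoured at 2-cell in 106 and at blastocyst in 20. The 2-cell forms were shorter, with medians of 1069 bases and 5 exons against 1408 bases and 7 exons. In 66 genes (37.7%) the starts of the favoured forms lay over 300 bases apart. Over all transcripts tested for their level, the median change was 0.01 for exact matches (7446) and -0.92 for new isoforms (5177). The class, length and start of forms were not counted for genes without a called share. Whether these traits are particular to the 175 genes was not tested. Without 2-cell replicate 1, without 2-cell replicate 2 and without blastocyst replicate 2 no transcript was called by limma (1057, 842 and 1115 at an unadjusted p under 0.05 with the same change of share), and without blastocyst replicate 1 it was 24.

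The genes with the largest change of share mostly differed at the 5′ end of their forms. In Bdh1, the mitochondrial 3-hydroxybutyrate dehydrogenase, the annotated form of 7 exons (chromosome 16, 31428785 to 31457499, plus strand) held 0 and 12.5% of the gene's TPM at 2-cell and 100 and 100% at blastocyst (log2 ratio change 6.92, SE 1.08, adjusted p = 0.0204). A new isoform that starts 6618 bases downstream and ends at the same base held 77.1 and 74.1% at 2-cell and 0.0 and 0.0% at blastocyst. In 2-cell replicate 1 the whole gene was at 3.2 TPM. Mtus2, a microtubule-associated gene, used a new isoform starting 2315 bases downstream for 82.3 and 90.6% of its TPM at 2-cell and for 5.3 and 0.0% at blastocyst (adjusted p = 0.0204). In Flot1, which encodes flotillin-1, a form of 6 exons that lacks the upstream part of the 13-exon gene and starts 6132 bases into it held 91.7 and 98.8% against 21.96 and 0.0%.

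New first exons also lay upstream of the annotated start. In Adh5, the glutathione-dependent formaldehyde dehydrogenase, a form starting 5897 bases upstream held 100 and 73.4% at 2-cell and 1.5 and 0.0% at blastocyst, and in Pglyrp1, a peptidoglycan recognition protein, one starting 14922 bases upstream held 96.8 and 97.5% against 32.5 and 0.0%. Apoc2, an activator of lipoprotein lipase, exchanged 2 annotated forms with starts 3041 bases apart: the one of 766 bases held 100 and 98.1% at 2-cell and 8.2 and 3.5% at blastocyst. In Fars2, the mitochondrial phenylalanyl-tRNA synthetase, the 7-exon form held 25.9 and 6.6% against 100 and 100%, and in Arhgap8 a single exon of 3329 bases held 86.8 and 66.9% against 13.3 and 0.3%. All these shares were split without overlap between the stages, at gene levels from 3.2 to 182.1 TPM in the 4 libraries. Spin1, a maternal chromatin reader named after its values were seen, combined a switch with a fall of the gene: from 265.3 and 2138 to 9.2 and 5.6 TPM, with a new isoform that starts 31906 bases downstream holding 82.9 and 98.4% of the gene at 2-cell, 99.7 and 99.0% in the oocyte and 26.9 and 0.0% at blastocyst.

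**Figure D5:**
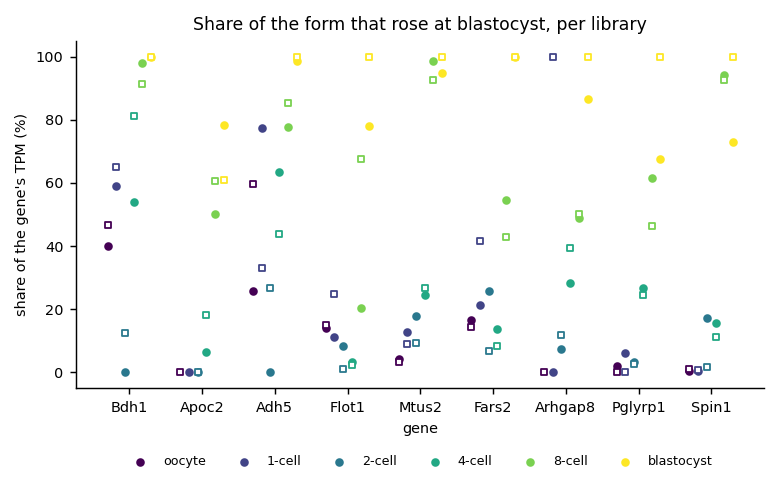
For the 8 genes with the largest called change of share, and Spin1, each point is the percentage of the gene's TPM in 1 library that falls on the form favoured at blastocyst, with the stages from oocyte (dark) to blastocyst (yellow) from left to right, filled circles for replicate 1 and open squares for replicate 2. The blastocyst points lie at 60.8% or higher in every gene and the 2-cell points at 26.6% or lower, and the 8-cell points lie between them or with the blastocyst.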

How the data were processed

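Pooled mouse embryos were lysed by stage, their cDNA was amplified by Smart-seq2, and batches of it were read by PacBio Sequel (1 pool a stage) and Illumina (2 libraries a stage). The authors clustered long reads with Iso-seq3, aligned them to mm10 with GMAP, collapsed them with cDNA_Cupcake, which also removed forms called 5′ degraded, merged the transcripts of all stages with Cuffmerge, and quantified TrimGalore-trimmed short reads on them with salmon. The submitters' processing notes also name GSNAP and STAR. The deposited TPM values cover 22612 merged transcripts, sum to 1000000 in each library and keep no depth, so no count test was run. Counting error was not estimated, although the paper lists the number of sequences of each library. The other deposited files hold exon coordinates, which were read as given.

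Transcripts were assigned to GENCODE vM21 genes by same-strand exon overlap, the methods naming vM20. Gene TPM were sums over transcripts. Genes with at least 1 TPM in at least 2 of 12 libraries from oocyte to blastocyst were compared as log2(TPM + 1) with limma 3.58.1 (R 4.3.3), with stage as the only term, weights for the spread of each stage, a trended prior and Benjamini-Hochberg adjustment at 0.05. Fold changes are on this scale and understate the change of low genes. Isoform shares were tested as log2((TPM + 1)/(TPM of the rest of the gene + 1)) for genes with at least 2 such transcripts and a mean of at least 5 TPM at both stages, and called with a share change over 0.1. Fits without a library kept the weights of all 12, so a lone sample was assumed to vary like its stage. Scripts were tested on simulated data. Promoters came from RefSeq (GRCm38.p6).

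Named were the 10 largest called changes in each direction, the 10 largest falls of annotated genes, the 5 largest of new transcripts, the 8 largest isoform changes and members of 18 gene lists. The members and lists were chosen with earlier results of these data known. Alternatives comprised the pseudocount, low filter, quantile scaling, locus definition, spread, replicate block and left-out libraries.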

Additional observations from a re-analysis of the deposited data

How the results depend on the processing

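The direction of every called gene held in each fit that left out 1 library, as it had to, because the libraries of called genes did not overlap. Counts of calls did not hold. Leaving out 1 of the 4 libraries gave 58 to 197 genes higher at blastocyst and 247 to 739 higher at 2-cell, 0 to 205 and 0 to 591 transcripts, and 0 to 24 changed isoform shares. With 1 spread for all stages the counts were 1229 and 2904 genes, 1649 and 3881 transcripts and 1053 isoform shares, and with the 4 libraries alone 81 and 423 genes, 44 and 318 transcripts and, by limma, 0 isoform shares (1199 at an unadjusted p under 0.05). Quantile normalization gave 1233 and 1120 genes, 1452 transcripts higher at blastocyst and 137 isoform shares. Genes defined by the deposited locus gave 424 isoform shares. The cause was not tested. Counts of genes stayed within 1.5 times under the other pseudocount (272 and 1152), filters (253 and 789 with none, 363 and 1123 at 5 TPM), the deposited locus (272 and 939) and, chosen after seeing the data, rescaling without new genes (233 and 771).

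The replicate differences of the 2 stages were inversely correlated over genes (-0.494), so equal replicate numbers did not pair the libraries. Genes higher in 2-cell replicate 2 than in replicate 1 tended to be higher in blastocyst replicate 1. The cause was not tested. A replicate block gave 264 and 900 genes, 246 and 770 transcripts and 165 isoform shares, and with the blastocyst numbers exchanged, added after seeing the data, 237 and 847, 226 and 720, and 145. The share of long-read transcripts found at both stages was 36.3% of the 2-cell and 36.1% of the blastocyst pool when multi-exon transcripts had to share the whole intron chain and 51.6 and 53.2% for multi-exon transcripts. Of the 146 named features, over 9 settings, 1017 values kept direction and call, 250 lost the call, 41 gained it and 6 reversed, all of genes not called. Without single libraries the change of Dppa3 ranged from -0.61 to 2.40, that of Klf4 from -2.79 to 0.34, that of Duxf3 from -2.41 to 0.30 and that of Tjp1 from -0.70 to 0.65, and Tjp1 was at 0.81 after quantile normalization. Limits set by depth were not estimated, because TPM hold no depth.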

Other observations

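The class of a gene went with its direction beyond the unannotated loci. Of 547 long noncoding and antisense genes tested, 10.2% were called higher at 2-cell and 0.914% higher at blastocyst, beside 4.42 and 2.92% of protein-coding genes. Of 19 genes of the annotation class TEC (models awaiting experimental evidence), 8 were called higher at 2-cell and 1 higher at blastocyst, and of 351 pseudogenes 40 and 8, where near-copies may share reads. On the X chromosome, 2.44% of 287 protein-coding genes were called higher at blastocyst and 2.79% higher at 2-cell, beside 2.93 and 4.47% of 8761 on the autosomes. These shares are descriptions with no test.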
